A study of Homo sapiens with 6 samples.

Results

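The mitochondrial genome (mtDNA) encodes 13 mRNAs, 2 rRNAs and 22 tRNAs, and these 37 genes were measured in PLC/PRF5 cells with and without knockdown of the nuclear RNA helicase MTR4. They were chosen as all genes whose GENCODE symbol starts with MT-, out of 60675 genes in the count files, and all 37 had the same position in the RefSeq annotation of GRCh38. The RNA-seq series holds 3 control libraries and 3 MTR4 KD libraries from PLC/PRF5, an established line from a human hepatocellular carcinoma, grown in DMEM with fetal bovine serum. MTR4 KD stands for shRNA-mediated knockdown in that line, and the labels call the other group control and give no further genotype. The study's methods describe a stably expressed shRNA as well as a doxycycline-inducible one (iMTR4), and its description of the expression profile refers to iMTR4 cells before and after doxycycline, so a drug that only the KD cells received may belong to the comparison. A library of doxycycline-treated cells with a scramble shRNA was not analysed here, and nothing says that replicates came from separate cultures, so p-values measure only the spread between these libraries, which may be technical.

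mtDNA is a circular genome that is transcribed from both strands into long precursors by the mitochondrial RNA polymerase POLRMT with TFAM and TFB2M. Most mRNAs and both rRNAs are bounded by tRNAs, and excision of these tRNAs by RNase P and RNase Z (ELAC2) releases the other RNAs. Most of the released RNAs then receive poly(A) tails from MTPAP. LRPPRC with SLIRP protects the mRNAs, and the helicase SUPV3L1 with the exonuclease PNPT1 degrades mitochondrial RNA. The mRNAs encode core subunits of respiratory complexes I, III and IV and of the ATP synthase, complex V, whose other subunits are imported from the cytosol.

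The 3′ ends of the mRNAs are shown because they record this way of processing. In the annotated transcripts, 6 of the 13 mRNAs end with an incomplete stop codon, 5 of them in a single T and 1 in TA, and the poly(A) tail supplies the missing bases. The annotated stop codon of MT-ATP6 is complete, but its last base, position 9207, is shared with the start of MT-CO3. The last 15 bases of the 6 and of MT-ATP6 were as follows, with the bases of the stop codon in capitals.
MT-ND1: tccccctcaaaccTA
MT-ND2: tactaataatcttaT
MT-CO3: attgatgagggtctT
MT-ND3: tagactgaaccgaaT
MT-ND4: ccgggttttcctctT
MT-CYB: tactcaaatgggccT
MT-ATP6: cacgacaacacaTAA
The next pair of sequences is shown because it bears on counting. MT-ATP8 (positions 8366 to 8572 of the mitochondrial chromosome of GRCh38, as all positions here) and MT-ATP6 (8527 to 9207) share 46 bases, and MT-ND4L (10470 to 10766) and MT-ND4 (10760 to 12137) share 7, which are in capitals between flanks of 15 bases.
MT-ATP8 and MT-ATP6: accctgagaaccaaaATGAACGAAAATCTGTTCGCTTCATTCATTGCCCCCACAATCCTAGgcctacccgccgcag
MT-ND4L and MT-ND4: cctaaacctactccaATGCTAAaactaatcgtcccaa
Among the mRNAs, MT-ATP6 and MT-CO3 also share 1 base, position 9207. A read that touches both genes of such a pair is left out by the default mode of HTSeq, the counting tool that the labels name. The mode used is not given in the sources used here.

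Reads counted on genes numbered 60686786 to 72708682 in each library. A read aligning to several places is non-unique, and such reads were 34.7% to 37.5% of all entries in 3 libraries (control 1 and 3, MTR4 KD 3) and 14.8% to 18.2% in the other 3. The first are called the libraries with more non-unique reads and the second those with fewer, a division read from the files and not a group of the study. The same division showed in other entries. Reads of low alignment quality were 1.62% to 1.66% in the first and 5.61% to 5.73% in the second. Unaligned reads were 1.33% to 1.86% and 3.83% to 5.96%, and reads ambiguous between genes 5.89% to 6.37% and 7.79% to 8.29%. The class has 5694 genes at an adjusted p under 0.05 (31.5%, quasi-likelihood F-test of edgeR) in a fit that also holds the condition. MTR4 (MTREX) was at 72.2, 87.4 and 74.4 CPM (counts scaled by library size and TMM) in the control libraries and at 44.6, 48.8 and 44.1 CPM in the MTR4 KD libraries, a log2 fold change of -0.77 (adjusted p = 0.00641, quasi-likelihood F-test of edgeR). Of 11 hepatocyte genes all were measured, with ALB at 740 to 953 CPM, and of 9 markers of blood cells, fibroblasts and endothelium with a match the highest was HBB, at 17.7 CPM in MTR4 KD replicate 1 and at most 0.0749 CPM elsewhere. Control replicate 2 also stands apart, since 155 genes were above 1 CPM and over 5 times higher there than in every other library. SPARC was among them, with 19.8 CPM against at most 0.930 CPM. So were MAP1B (22.4 against at most 1.30 CPM), SOX11 (12.9 against at most 0.0326 CPM), DPYSL5 (12.8 against at most 0.0663 CPM) and MAP2 (10.6 against at most 0.373 CPM). No MT- gene met this rule in control replicate 2 or in any other library, so it does not tell the libraries apart for these genes. The markers above cover blood cells, fibroblasts and endothelium only, and the origin of the transcripts high in control replicate 2 was not tested.

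Transcripts of the mitochondrial genome took a larger share of the reads in MTR4 KD replicate 3 than in any other library, and the remaining MTR4 KD libraries lay within the range of the controls. The share of all reads counted on genes was 3.04%, 3.99% and 3.15% in the control and 3.68%, 3.73% and 5.80% in the MTR4 KD libraries, in the order of their replicate numbers here and in what follows. With n = 3 per group, the mean ± SD was 3.39% ± 0.519 in control and 4.41% ± 1.21 in MTR4 KD, so the groups overlapped and the difference of 1.02 percentage points was smaller than the SD of the MTR4 KD group. Without MTR4 KD replicate 3 the difference was 0.317 percentage points. Within the libraries with more non-unique reads it was 2.71, and within those with fewer it was -0.28 percentage points. Over all entries, with the reads that name no gene included, the share was 1.56%, 2.48% and 1.60% in the control and 2.29%, 2.30% and 3.06% in the MTR4 KD libraries, and the groups again overlapped. A score over the members gets no test here, and an exact permutation of 3 against 3 libraries could not give a p under 0.1 for any single value. In bulk libraries, fewer cells of a type and less RNA per cell cannot be told apart, and a share also moves with all the other RNA.

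The mRNAs and the rRNAs divided this share differently. The mRNAs took 2.23%, 2.49% and 2.30% in the control libraries and 2.37%, 2.35% and 4.56% after MTR4 KD. Apart from MTR4 KD replicate 3, the 5 libraries thus lay close together, and that library stood far above them. For the rRNAs the shares were 0.805%, 1.49% and 0.846% in the control libraries and 1.31%, 1.38% and 1.24% in the MTR4 KD libraries. Here control replicates 1 and 3 were low and control replicate 2 was the highest of all libraries. On the log2 scale the ratio of rRNA to mRNA reads was -1.47, -0.74 and -1.44 in the controls and -0.85, -0.77 and -1.87 in MTR4 KD, so it was low in the 3 libraries with more non-unique reads and high in the 3 with fewer, whatever the condition.

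**Figure D1:**
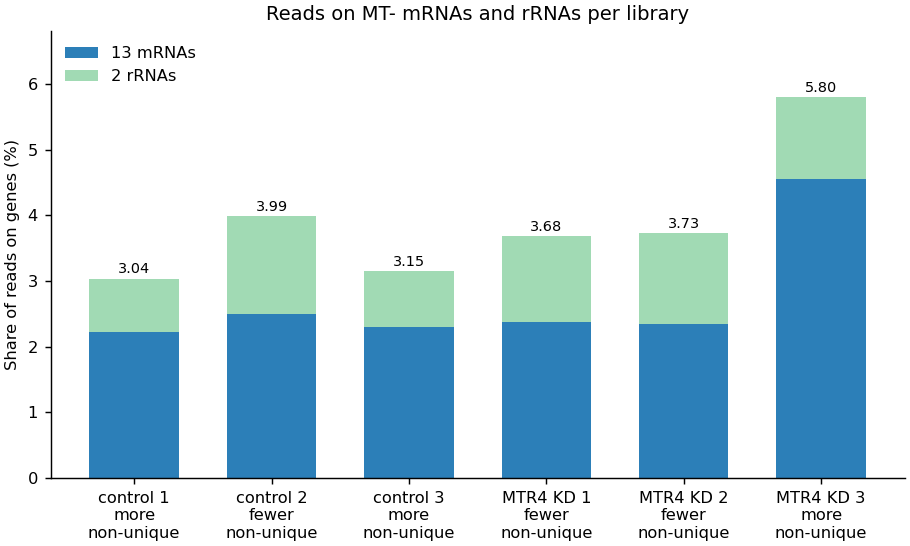
Share of reads on genes (%, y axis) that fell on the 13 mRNAs and the 2 rRNAs of the mitochondrial genome in each of the 6 libraries, with the total for all 37 genes, tRNAs included, written above each bar and the class of the library below it. MTR4 KD replicate 3 reaches 5.80% and the other 5 libraries lie between 3.04% and 3.99%.

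In the fit across all genes, none of the mitochondrial genes was called changed, although each of the 16 that could be tested had a higher mean in the MTR4 KD libraries. A filter on low counts kept 16 of the 37 genes, the 13 mRNAs, both rRNAs and 1 tRNA. Of these, 0 had an adjusted p under 0.05 in the quasi-likelihood F-test of edgeR, where 267 of 18075 tested genes were called higher (1.48%) and 383 lower (2.12%), or 3.6% in all. At an unadjusted p under 0.05 there were 2 of 16, against 18.8% of all tested genes, and DESeq2's Wald test called 1 of 16, MT-ATP6, where it called 7.54% of all genes (3.28% higher, 4.26% lower). The log2 fold changes of the 16 ran from 0.14 for MT-ND6 to 1.06 for MT-ATP8 with a median of 0.41, beside a median of 0.0062 over all tested genes, of which 51.1% were above 0. In 4 of the 16 (MT-ATP6, MT-CYB, MT-ND2 and MT-TP) every MTR4 KD library was above every control library, which was true of 12.1% of all tested genes. Only MT-ATP8 had a log2 fold change above 1.

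MTR4 KD replicate 3 was the highest of the 6 libraries for 14 of the 16 genes, the exceptions being the rRNAs, against 19.5% of all tested genes. Its level was 0.932 to 2.37 times the mean of MTR4 KD replicates 1 and 2, with a median of 1.90. Some 28 genes were above 10 CPM and over 1.5 times higher in this library than in every other, and 11 of them were MT- genes. Without this library, 9 of the 16 log2 fold changes were above 0 and 7 below, from -0.21 for MT-ND5 to 0.68 for MT-ATP8, with a median of 0.075 and 0 genes with an adjusted p under 0.05 (lowest adjusted p = 0.156), in a fit that called 1.46% of all genes higher and 1.87% lower (3.33%). For MT-ND1, MT-CO2, MT-CO3, MT-ND4L, MT-ND4, MT-ND5 and MT-ND6 the direction turned. The direction of the MTR4 KD mean thus depended on 1 library for these 7 mRNAs.

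**Figure D2:**
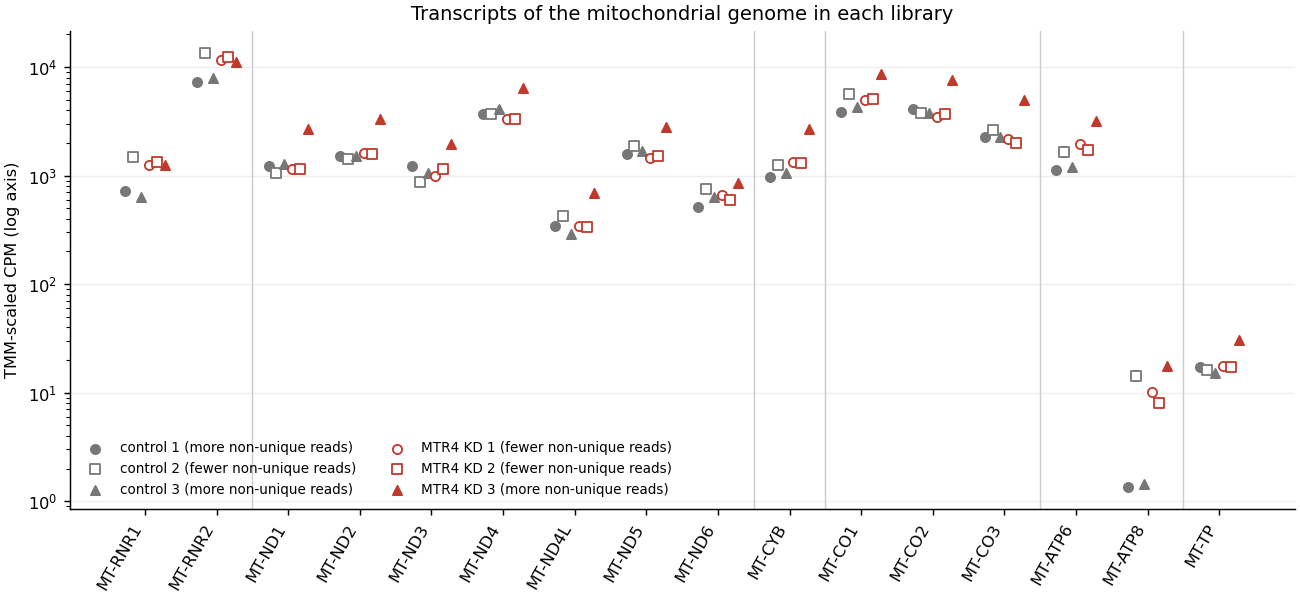
Level of the 16 mitochondrial transcripts that passed the filter, in CPM with TMM scaling on a log axis, with 1 point for each library. Grey marks the control and red the MTR4 KD libraries, filled symbols have more and open symbols fewer non-unique reads, and the filled red triangle, MTR4 KD replicate 3, is on top for all genes but the rRNAs MT-RNR1 and MT-RNR2.

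The 7 mRNAs of complex I, the NADH dehydrogenase that takes up electrons at the start of the chain, are MT-ND1 to MT-ND6 and MT-ND4L. MT-ND2 (ENSG00000198763, positions 4470 to 5511), a subunit of its membrane arm, was at 1507, 1412 and 1526 CPM in the control and at 1623, 1584 and 3353 CPM in the MTR4 KD libraries. The groups did not overlap, but MTR4 KD replicates 1 and 2 lay just above the controls and replicate 3 far above. Its log2 fold change was 0.56 (SE 0.28, adjusted p = 0.332, quasi-likelihood F-test of edgeR). MT-ND1 (3307 to 4262), which sits where the membrane arm meets the peripheral arm, was at 1218, 1063 and 1269.7 CPM in the control and at 1157, 1154 and 2667 CPM in the MTR4 KD libraries. Here MTR4 KD replicates 1 and 2 were inside the range of the controls. For MT-ND4 (10760 to 12137), the complex I mRNA with the most reads and a proton-pumping subunit, the levels were 3711, 3679.5 and 4097 CPM in the control and 3357, 3357 and 6413 CPM in the MTR4 KD libraries. MTR4 KD replicates 1 and 2 were lower than every control and replicate 3 was higher than every control. MT-ND5 (12337 to 14148), the distal pumping subunit, followed the same order, with 1571, 1864 and 1671 CPM in the control and 1446, 1503 and 2795 CPM in the MTR4 KD libraries. MT-ND3 was at 876 to 1216 CPM and MT-ND4L at 287 to 421 CPM in the control, against 988 to 1951 and 339 to 697 CPM in the MTR4 KD libraries, and for both of these small membrane subunits the groups overlapped.

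MT-ND6 (ENSG00000198695, 14149 to 14673) is the only mRNA annotated on the minus strand of the reference, opposite to the other 12. It was at 516, 758 and 637 CPM in the control and at 656, 591 and 860.3 CPM in the MTR4 KD libraries, with the smallest log2 fold change of the mRNAs (0.14, SE 0.18). The groups overlapped, and MTR4 KD replicate 3 was 1.13 times control replicate 2, the next highest. Relative to the 12 mRNAs of the other strand, on the log2 scale, it was -5.40, -5.00 and -5.15 in the control and -5.12, -5.27 and -5.71 in the MTR4 KD libraries. MTR4 KD replicate 3 was the lowest, so MT-ND6 stood less high in that library than the mRNAs of the other strand. Whether the library kit or the counting used strand is not given in the sources used here, and reads of MT-ND6 and of precursors from the opposite strand may not be told apart.

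MT-CYB (ENSG00000198727, 14747 to 15887) encodes cytochrome b, the core subunit of complex III that passes electrons from ubiquinol, and it had a higher level in all MTR4 KD libraries. It was at 963, 1254 and 1056 CPM in the control and at 1331, 1293 and 2685 CPM in the MTR4 KD libraries. MTR4 KD replicates 1 and 2 exceeded control replicate 2 by little, and replicate 3 stood apart. The log2 fold change was 0.70 (SE 0.28, adjusted p = 0.246, quasi-likelihood F-test of edgeR), and 0.27 without replicate 3 (adjusted p = 0.193).

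The 3 mRNAs of complex IV, cytochrome c oxidase, held 46.1% of all mitochondrial mRNA reads in the control and 45.7% in the MTR4 KD libraries on average. MT-CO1 (5904 to 7445), its catalytic subunit, was at 3821, 5599 and 4326 CPM in the control and at 4924, 5027 and 8671 CPM in the MTR4 KD libraries. MT-CO2 (7586 to 8269), which receives electrons from cytochrome c, was at 4082, 3793 and 3766 CPM in the control and at 3477, 3694 and 7552 CPM in the MTR4 KD libraries. MT-CO3 (9207 to 9990), a structural core subunit, was at 2264, 2644 and 2279 CPM in the control and at 2169.6, 2014 and 4949.9 CPM in the MTR4 KD libraries. For MT-CO2 and MT-CO3, MTR4 KD replicates 1 and 2 were below every control library and replicate 3 was above every one, while for MT-CO1 they lay within the range of the controls. The log2 fold changes of MT-CO1, MT-CO2 and MT-CO3 were 0.44, 0.34 and 0.35.

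MT-ATP6 and MT-ATP8 encode membrane subunits of complex V and are read from a shared mRNA. MT-ATP6 (ENSG00000198899), part of the proton channel, was at 1116, 1666 and 1200.1 CPM in the control and at 1952, 1735 and 3190.4 CPM in the MTR4 KD libraries. All 3 MTR4 KD libraries were above all 3 control libraries, with control replicate 2 close below MTR4 KD replicate 2. It had the lowest adjusted p of the mitochondrial genes, 0.153 in the quasi-likelihood F-test of edgeR with a log2 fold change of 0.79 (SE 0.25), and 0.0110 in DESeq2's Wald test. MT-ATP8 (ENSG00000228253) gave 83, 1021 and 86 reads in the control and 617, 536 and 1072 reads in the MTR4 KD libraries, or 1.35, 14.1 and 1.43 CPM and 10.1, 8.03 and 17.5 CPM. It was low in control replicates 1 and 3 and high in control replicate 2. Its log2 fold change of 1.06 had a SE of 0.87, and without control replicate 2 it was 3.09 (adjusted p = 0.00791, quasi-likelihood F-test of edgeR). In the 6 libraries the reads on MT-ATP8 were 0.0012 to 0.0085 times those on MT-ATP6, although both are read from a shared mRNA. Because the 46 shared bases printed above can be lost to counting, the number of reads on MT-ATP8 may understate its transcript, by an amount that was not tested. Its fold changes thus describe the reads that were counted and may not describe the shared mRNA.

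The rRNAs belong to the mitochondrial ribosome, MT-RNR1 (ENSG00000211459, 648 to 1601) to its small and MT-RNR2 (ENSG00000210082, 1671 to 3229) to its large subunit. MT-RNR1 was at 726, 1496 and 638 CPM in the control and at 1260.4, 1341 and 1255 CPM in the MTR4 KD libraries. MT-RNR2 was at 7332, 13485 and 7884 CPM in the control and at 11715, 12421 and 11243 CPM in the MTR4 KD libraries. For both, control replicate 2 was the highest library and control replicates 1 and 3 were the lowest, with the MTR4 KD libraries close together between them. The log2 fold changes were 0.43 (SE 0.30, adjusted p = 0.496) and 0.30 (SE 0.22, adjusted p = 0.521). Without control replicate 2 both passed, with 0.91 (adjusted p = 0.00330) and 0.63 (adjusted p = 0.00909, quasi-likelihood F-test of edgeR), and with MT-ATP8 they were 3 of 16 genes called in that fit, against 4.34% of all genes (1.62% higher, 2.72% lower). MT-RNR2 had 8.96 to 12.4 times the reads of MT-RNR1 in the 6 libraries.

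Of the 22 tRNAs, which are 59 to 75 bases long, 19 had no read in any library. Over the 6 libraries together MT-TF had 8 reads and MT-TA had 4, whereas MT-TP, the proline tRNA, had 7252. MT-TP (ENSG00000210196, 15956 to 16023, minus strand) is the last of the 37 genes on the chromosome, next to the control region where transcription starts, and its sequence is shown because it is the only tRNA with enough reads to be tested.
MT-TP: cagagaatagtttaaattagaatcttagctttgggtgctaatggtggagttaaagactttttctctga
It gave 1058, 1159 and 921 reads in the control and 1081, 1155 and 1878 reads in the MTR4 KD libraries, or 17.2, 16.0 and 15.3 CPM and 17.6, 17.3 and 30.6 CPM. MTR4 KD replicate 3 was high and the other 5 libraries nearly alike. The log2 fold change was 0.44 (SE 0.22, adjusted p = 0.339, quasi-likelihood F-test of edgeR) and 0.11 without that library. Column extraction of RNA recovers short RNAs poorly, and the counts do not tell precursors from mature tRNA, so these values are not levels of tRNA in the cells.

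Per kilobase of gene, MT-RNR2 had the highest mean in the control libraries (6137 ± 2184 CPM per kilobase) and MT-CO2 followed with 5673 ± 256 (SD, n = 3). Their control ranges overlapped, from 4703 to 8650 for MT-RNR2 and from 5505 to 5968 for MT-CO2. MT-RNR2 was the higher in 3 of 6 libraries, those with fewer non-unique reads, so which of them was first followed the library class. MT-CO3 (3056 ± 275), MT-ND3 (3030 ± 493), MT-CO1 (2971 ± 594) and MT-ND4 (2779 ± 169) came next, and no neighbours among these 4 differed beyond their spread. MT-ATP6 (1949 ± 435) was above MT-ND2 (1422 ± 58.3), and MT-ND2 above MT-ND1 (1238 ± 113), in 6 of 6 libraries each. MT-ND1, MT-ND6, MT-ND4L, MT-RNR1, MT-CYB and MT-ND5 then lay between 1238 and 939 CPM per kilobase on average with overlapping ranges from each to the next. MT-ATP8, at 27.2 ± 35.5, was the lowest. In the MTR4 KD libraries the order differed only between places 3 and 13, where MT-CO1 moved from place 5 to 3 and MT-CYB from 13 to 10.

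Within the pool of mitochondrial mRNA reads, which takes out the height of the whole pool in each library, the share of 5 of the 13 mRNAs did not overlap between the groups. In CPM, 3 of the 13 were higher and 0 lower without overlap, beside 12.1% of all tested genes higher and 12.6% lower. These percentages are for CPM and give no background for shares of the mitochondrial mRNA reads. MT-ATP6 made up 4.998%, 6.65% and 5.18% of these reads in the control and 8.33%, 7.40% and 6.97% in the MTR4 KD libraries. MT-CYB made up 4.31%, 5.01% and 4.56% in the control and 5.68%, 5.51% and 5.86% in the MTR4 KD libraries. For both, each MTR4 KD library was above each control library, replicates 1 and 2 included. MT-ND5 went the other way, with 7.04%, 7.44% and 7.21% in the control and 6.17%, 6.41% and 6.10% in the MTR4 KD libraries. MT-ND4 made up 16.6%, 14.7% and 17.7% in the control and 14.3%, 14.3% and 14.0% in the MTR4 KD libraries, again without overlap. MT-ND2 was the remaining mRNA of 13 whose groups did not overlap, by a narrow margin, with 6.75%, 5.64% and 6.58% in the control and 6.93%, 6.75% and 7.32% in the MTR4 KD libraries.

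Groups that do not overlap must differ in the same direction within each library class, so only the sizes within the classes are informative. The share of MT-ATP6 differed by 1.88 percentage points (MTR4 KD minus control) with more and by 1.21 with fewer non-unique reads, that of MT-CYB by 1.43 and 0.589, and that of MT-ND2 by 0.654 and 1.20. For MT-ND5 the differences were -1.02 and -1.16, and for MT-ND4 they were -3.15 and -0.37 percentage points. By complex, reads of complex V over those of complex I were at -3.17, -2.58 and -3.13 on the log2 scale in the control and at -2.29, -2.47 and -2.55 in the MTR4 KD libraries, a mean difference of 0.53. The ratio of complex III to complex I reads was at -3.39, -3.01 and -3.32 in the control and at -2.85, -2.91 and -2.80 in the MTR4 KD libraries, a mean difference of 0.39. Both ratios separated the groups, whereas that of complex IV to complex I did not, with a mean difference of 0.074. MT-CYB is the only mRNA of complex III, nearly all complex V reads were of MT-ATP6, and complex I holds MT-ND4 and MT-ND5. The ratios of complexes III and V thus restate the shares of these mRNAs and are not separate results. Shares of a pool add up to a fixed total, so they do not move independently, and no test was run on them.

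**Figure D3:**
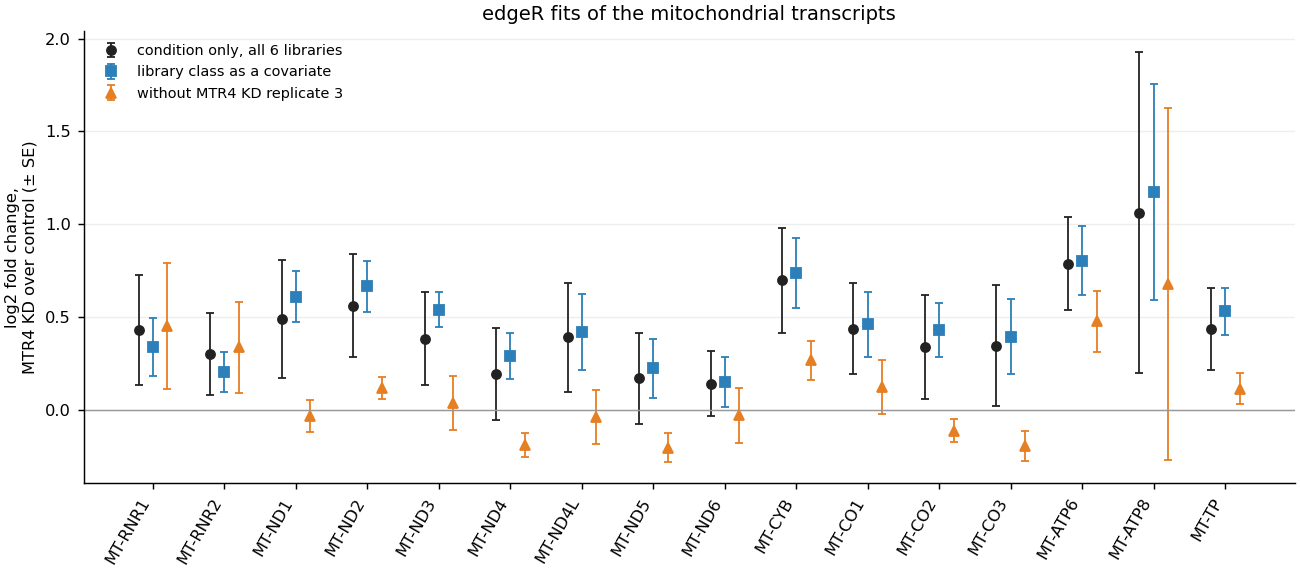
log2 fold change of MTR4 KD over control with its standard error for the 16 mitochondrial transcripts in 3 edgeR fits, with condition as the only term (black circles), with the class of the library as a covariate (blue squares), and without MTR4 KD replicate 3 (orange triangles). The black and blue values lie above 0 for all 16 genes, and 7 of the orange values lie below 0.

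The difference between MTR4 KD and control was not the same in both classes of libraries. Among the libraries with more, MTR4 KD replicate 3 was above the mean of control replicates 1 and 3 in all 16 genes, by 0.56 for MT-RNR2 to 3.66 for MT-ATP8 on the log2 scale, with a median of 1.02. Among those with fewer, MTR4 KD replicates 1 and 2 were above control replicate 2 in 6 genes and below it in 10, from -0.65 for MT-ATP8 to 0.29 for MT-ND3, with a median of -0.15. The interaction of condition and class, added after the data were seen, had an adjusted p under 0.05 for 15 of the 16 genes (quasi-likelihood F-test of edgeR), all but MT-ND3 (adjusted p = 0.0692), against 0.974% of all tested genes (0.813% above and 0.16% below 0). Of the 20 genes with the smallest p for it, 12 were MT- genes. The interaction was 1.46 for MT-CO3 (adjusted p = 1.35e-08), 1.35 for MT-CYB (adjusted p = 6.01e-08) and 1.12 for MT-ND5 (adjusted p = 2.03e-07), on the log2 scale. It rests on a single MTR4 KD library in the one class and a single control library in the other, the same 2 libraries that stand apart from the rest. The part of these libraries in the interaction cannot be told apart from that of the class.

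With the class as a covariate, 6 of the 16 genes were called higher and 0 lower, where 9.43% of all tested genes were higher and 10.8% lower (20.2% in all). They were MT-ND1 (0.61), MT-ND2 (0.66), MT-ND3 (0.54), MT-CYB (0.74), MT-ATP6 (0.80) and MT-TP (0.53, all log2 fold changes), with adjusted p from 0.00134 to 0.0144. This fit assumes the same difference in both classes, which the values above do not show. In the same fit 6 of the 16 genes were higher and 2, the rRNAs, were lower with more non-unique reads, against 16.2% and 15.3% of all genes. RN7SK, a nuclear RNA without a poly(A) tail, was at 28.9, 3.84 and 16.2 CPM in the control and 7.95, 8.97 and 35.2 CPM in the MTR4 KD libraries, so it was high in 3 and low in 3 libraries by class. Other RNAs without a tail did not share this order, as SNORD3A was at 0.277 to 0.454 CPM with more and at 1.02 to 1.86 CPM with fewer non-unique reads, and RNU5A-1 overlapped between the classes. The part of RNA selection in the mitochondrial values was not tested.

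**Figure D4:**
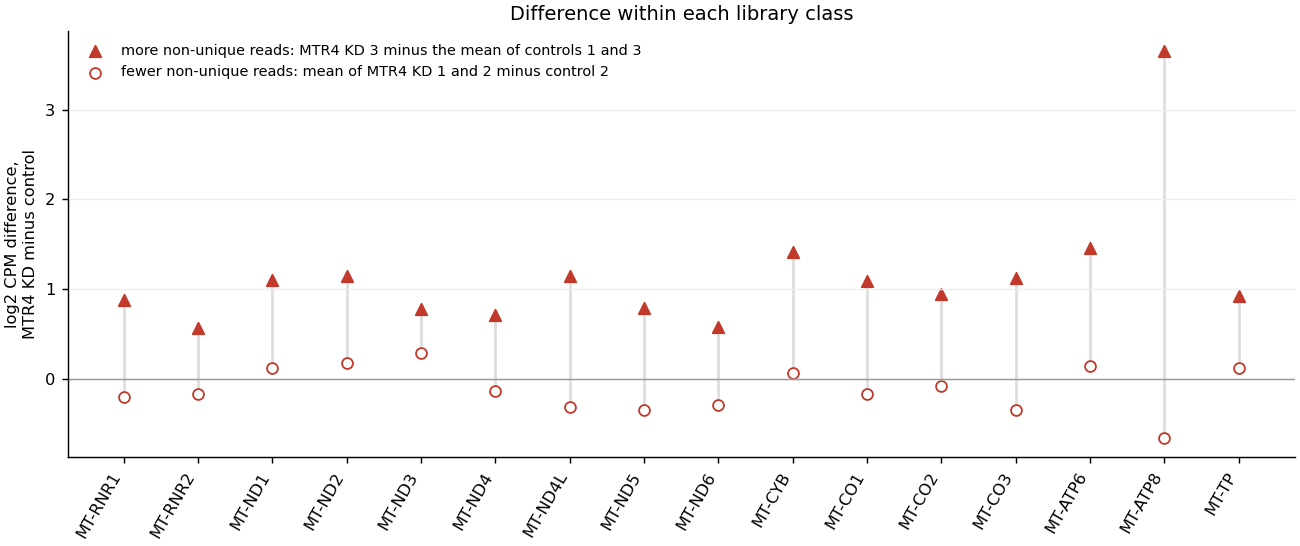
Difference in log2 CPM between MTR4 KD and control within each class of libraries for the 16 mitochondrial transcripts, with filled triangles for the class with more and open circles for the class with fewer non-unique reads. All 16 triangles lie above 0, and 10 of the 16 circles lie below it.

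Nuclear genes that make, process and use mitochondrial RNA were compared in lists, and 0 of their 266 tested genes passed the quasi-likelihood F-test of edgeR at an adjusted p under 0.05. The lowest adjusted p was 0.0847, for the release factor gene MTRF1L, 24 genes had an unadjusted p under 0.05 against 18.8% of all tested genes, and DESeq2's Wald test called 7 against 7.54%. In the lists for mtDNA transcription (10 tested), replication and nucleotide supply (18), RNA cleavage (8), RNA stability and decay (14), tRNA and rRNA modification (23), translation factors (32) and biogenesis regulators (11), the median log2 fold changes were between 0.0093 and 0.082. The 77 mitochondrial ribosomal proteins had a median of 0.015, and the nuclear subunits of complexes I (37), III (9), IV (12) and V (18) had medians of 0.081, 0.019, 0.073 and 0.070. With the class as a covariate 32 of the 266 were called, 21 higher and 11 lower, against the 9.43% and 10.8% given above.

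For genes that act on mitochondrial transcripts directly, no log2 fold change passed the test with condition alone. Some were larger in size than those of MT-ND4, MT-ND5 and MT-ND6. With the class as a covariate, PNPT1, POLRMT and GRSF1 were called lower and TFB2M higher, against 10.8% and 9.43% of all tested genes. DESeq2's Wald test called PNPT1 lower, against 4.26% of all tested genes. The log2 fold changes of POLRMT and TFB2M, which transcribe mtDNA, were -0.20 (adjusted p = 0.281) and 0.23 (adjusted p = 0.195), and that of TFAM was -0.016 (adjusted p = 0.921, quasi-likelihood F-test of edgeR). LRPPRC and SLIRP were at 0.073 and 0.16, the degradation factors PNPT1 and SUPV3L1 at -0.20 and 0.080, and MTPAP at 0.090. PNPT1 and GRSF1, an RNA granule protein, had a smaller value in every MTR4 KD library than in any control, with log2 fold changes of -0.20 (adjusted p = 0.105) and -0.15 (adjusted p = 0.227), which makes 2 of the 18 genes set to be named, against 12.6% of all tested genes. The largest of the 18 was 0.34, for the biogenesis coactivator PPARGC1A (adjusted p = 0.297). TWNK, the mtDNA helicase, was at 0.18, and TRMT10C, PRORP and HSD17B10, the subunits of mitochondrial RNase P, were at 0.034, 0.0083 and 0.024. FASTKD2 and FASTKD5, which act in RNA processing, were at 0.042 and 0.053, ELAC2 was at -0.040 and the mtDNA polymerase POLG at 0.015. In MTR4 KD replicate 3, POLRMT was 1.11 and TFAM 0.964 times the mean of MTR4 KD replicates 1 and 2, whereas the median of the mitochondrial genes was 1.90 times.

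Summed over the genes of a list and divided by the control mean, MT- mRNAs were at 0.950, 1.07 and 0.985 in the control libraries and at 0.997, 0.998 and 1.95 in the MTR4 KD libraries. The 76 nuclear subunits of complexes I, III, IV and V were at 0.972 to 1.03 in the control and 1.03 to 1.05 in the MTR4 KD libraries. For the mitochondrial ribosomal proteins the values were 0.997 to 1.00 and 0.992 to 1.02. The nuclear partners of the mitochondrial mRNAs thus did not share the height of MTR4 KD replicate 3.

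Nuclear copies of mtDNA genes, pseudogenes that can take up reads of mitochondrial origin, shared it in their sum but not each on its own. Of 395 listed copies 13 were tested, and 4 of them (MTND1P23, MTATP6P1, MTND2P28 and MTCO1P12) held 99.1% to 99.7% of the reads on all copies. MTATP6P1 was at 189, 292 and 208 CPM in the control and at 307, 323 and 571 CPM in the MTR4 KD libraries, and MTND1P23 at 239, 278 and 228 CPM and at 294, 279 and 533 CPM. For both, MTR4 KD replicate 3 was far above the others and control replicates 1 and 3 were the lowest. MTND2P28, at 76.2, 136 and 73.4 CPM in the control and 152, 149 and 163 CPM in the MTR4 KD libraries, was only 1.08 times as high in MTR4 KD replicate 3 as in replicates 1 and 2 on average, and MTCO1P12, at 11.4, 21.3 and 14.7 CPM and at 28.8, 25.6 and 33.2 CPM, was 1.22 times as high. Of the tested copies, 2 were above 10 CPM and over 1.5 times higher in that library than in every other, and over those with reads there the median log2 difference from the control mean was -0.32. The 13 copies gave 0 calls in the quasi-likelihood F-test of edgeR, against 3.6% of all tested genes, and 5 at an unadjusted p under 0.05, against 18.8%. With the class as a covariate 4 were called higher and 0 lower, against 9.43% and 10.8%. All 4 named copies were higher in every MTR4 KD library than in any control, against 12.1% of all tested genes. Of them, DESeq2's Wald test called MTATP6P1, MTND2P28 and MTCO1P12, against 7.54%. Reads on nuclear copies were 1.64% to 2.19% of the reads on copies and MT- genes together. With them added, the share of the mitochondrial genome was 3.45% ± 0.531 in the control and 4.50% ± 1.24 with MTR4 KD (mean ± SD of 3).

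**Figure D5:**
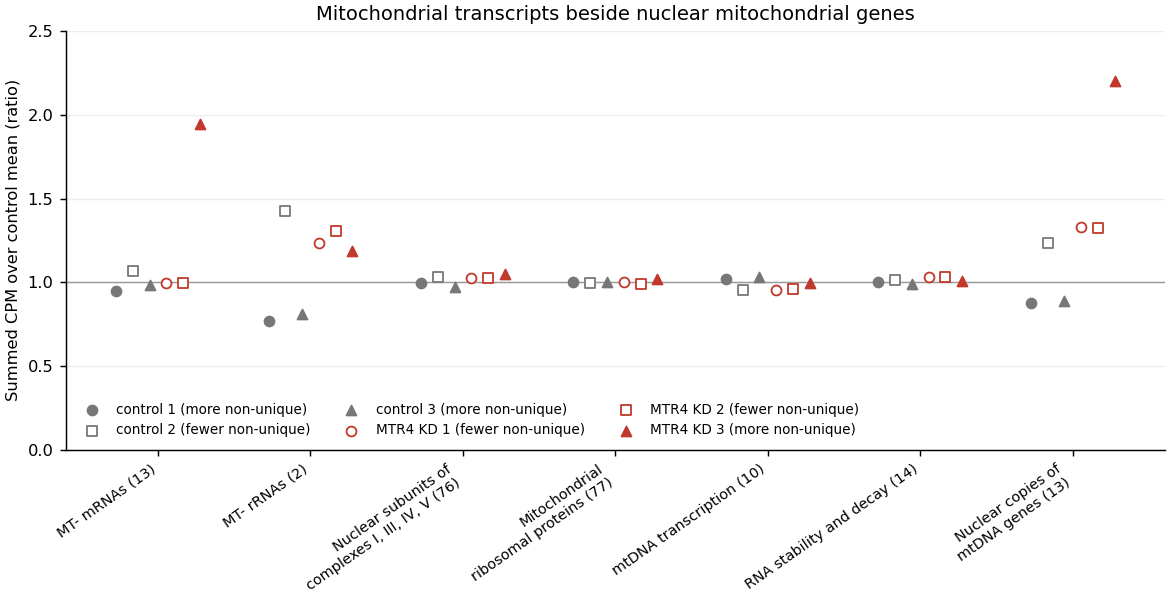
Summed CPM of each group of genes in each library divided by the mean of the control libraries (ratio, y axis), for MT- mRNAs and rRNAs, 4 groups of nuclear mitochondrial genes and the nuclear copies of mtDNA genes, with the number of tested genes in brackets. Grey marks control, red MTR4 KD, and filled symbols more non-unique reads. MTR4 KD replicate 3 is at 1.95 for MT- mRNAs and at 2.20 for nuclear copies, and all libraries lie between 0.953 and 1.05 for the nuclear groups.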

How the data were processed

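RNA-seq was done on 3 control and 3 MTR4 KD libraries of PLC/PRF5 cells. The authors extracted RNA with columns, and per the labels and the study's methods aligned reads with HISAT2 2.1.0 to GRCh38 (Ensembl annotation) and deposited raw HTSeq counts of reads per gene, without normalization; the HTSeq version, counting mode, strand setting and the selection of poly(A) RNA are not given in the sources used here. Entries that name no gene (37.7% to 49.3% per library) were left out of library sizes and tests. A GENCODE annotation lifted to GRCh37 gave symbols by Ensembl ID (56959 of 60675 genes matched) and the transcript sequences, and RefSeq gave the GRCh38 positions of all 37 genes.

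Genes were kept by edgeR's filterByExpr (minimum count 10), scaled by TMM and tested by edgeR's quasi-likelihood method in a model with only the condition, and p-values were adjusted (Benjamini-Hochberg) over all tested genes (R 4.3.3, edgeR 4.0.16, limma 3.58.1, DESeq2 1.42.0, Python 3.11.15, pandas 2.3.3, matplotlib 3.10.9). On simulated counts without library classes, the fit recovered 125 of 200 genes changed 2-fold (62.5%) and made 10 false calls. Changes of 2-fold or less can thus be missed. Replicates of a group all differed by more than counting noise. The chi-square per degree of freedom was 4.63 and 7.99 for replicates of the same library class and 84.2 to 93.7 for those of different classes. The alternatives were other scalings, filters and tests, a replicate block, the library class (over or under 30% non-unique reads) as a covariate, and each library left out. The interaction with the class, the class effect, differences within classes and the sum with nuclear copies were added after the data were seen. All 13 mRNAs, both rRNAs and tRNAs past the filter are named. Of the nuclear lists, 18 set genes are named, and no gene was past the threshold with condition alone. Beyond the 18 and the 4 nuclear copies, the calls of alternatives are given as counts. SPARC, MAP1B, SOX11, DPYSL5, MAP2, RN7SK, SNORD3A, RNU5A-1, MTRF1L and the 4 nuclear copies were named after their values were seen. The members and lists were chosen with earlier results of these data known.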

Additional observations from a re-analysis of the deposited data

How the results depend on the processing

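MTR4 stayed lower past the threshold under all 15 alternatives (log2 fold change -0.82 to -0.68). The pooled median of the 15 mRNAs and rRNAs stayed above 0 under the 15 that refit the genes (0.037 to 0.57). Its lowest value, 0.037, came without MTR4 KD replicate 3, and the mRNAs alone did not keep this direction there. In that fit their median was -0.029, with 6 mRNAs higher and 7 lower, while MT-RNR1 was at 0.45 and MT-RNR2 at 0.34. Genes of the 16 called numbered 1 with DESeq2's Wald test, 6 with the class as a covariate and 0 to 3 with a library left out, 3 being without control replicate 2. Among libraries with more and those with fewer non-unique reads, the median of the 15 was 1.09 and -0.16, and the share of reads differed by 2.71 and -0.28 percentage points. On the log2 scale, in the same order, the difference was 0.55 and 0.13 for complex III over complex I and -0.089 and 0.22 for tRNAs over mRNAs; with fewer non-unique reads it was 0.042 for MT-RNR2 over MT-RNR1, -0.11 for complex IV and 0.20 for complex V over complex I. Of the 266 nuclear genes in the lists, 7 were called with DESeq2's Wald test, 32 with the class as a covariate and 0 to 5 with a library left out. The cause of these shifts was not tested.

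With each library left out in turn, log2 fold changes ran from below 0 without MTR4 KD replicate 3 to above it for MT-ND1 (-0.035 to 0.69), MT-CO2 (-0.11 to 0.54), MT-CO3 (-0.19 to 0.57), MT-ND4L (-0.040 to 0.57), MT-ND4 (-0.19 to 0.35), MT-ND5 (-0.21 to 0.34) and MT-ND6 (-0.029 to 0.28). They also changed sign for TFAM (-0.060 to 0.010), POLG (-0.049 to 0.064) and PRORP (-0.088 to 0.14). PRORP (0.0083 in the fit with condition alone) was -0.00054 with no low-count filter and -0.095 with the class as a covariate, where HSD17B10 was -0.0090. None of these reversed values had an adjusted p under 0.05.

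Same-numbered control and MTR4 KD libraries had correlations of -0.24, 0.32 and 0.35 across genes in their deviations from the group means. These values followed the library class, at 0.32 to 0.36 for any pair of the same class and -0.49 to -0.23 otherwise. They therefore cannot show whether the numbers pair the samples. A replicate block gave 0 calls among the 16 genes, a median of 0.36 and 1 call in the nuclear lists, MTR4 at -0.76, and 1.02 percentage points for the share. MT-ATP8 had the fewest reads of the mRNAs, with 83 in control replicate 1, where MT-ATP6 had 68828. A further 21 genes, all tRNAs, had too few reads for a test.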
